A study of Mus musculus with 6 samples.

Results

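The genes examined here encode integrins and the other molecules by which blood cells attach to, enter and stay in the bone marrow. They were taken by gene symbol from the deposited table, and all 38 were found among its 55421 genes. There were 25 integrin subunits (17 α and 8 β), 3 selectins and selectin ligands (Selp, Sele and Selplg), the hyaluronan receptor Cd44, the surface ligands Icam1, Icam2, Vcam1 and Cd47, the chemokine Cxcl12 with the receptors Cxcr4 and Cxcr2, and the cytoplasmic integrin activators Fermt3 and Tln1. The rule uses gene symbols alone, although the list was drawn up with earlier results of these data known.

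RNA sequencing compared leukemia cells that carried AML1-ETO9a (AE9a), a truncated form of the AML1-ETO fusion protein, and either both working copies of Ddit4 (AE9a-Ddit4+/+, here called wild-type, 3 libraries) or a Ddit4 knockout (AE9a-Ddit4-/-, 3 libraries). The fusion and GFP had been brought by a retrovirus into c-Kit+ stem and progenitor cells of C57BL/6 donors of either genotype (aged 6 to 8 weeks), the cells had been transplanted into irradiated recipients, and the tissue label is bone marrow. The labels also give culture in IMDM with serum for both genotypes, and do not say whether GFP+ cells were sorted before RNA was taken. The question was which transcripts of Ddit4-deficient AE9a leukemia cells differ from those of Ddit4-competent ones. The labels do not say whether the 3 libraries of a genotype stem from separate leukemias, so p-values measure the spread between libraries only, which may be technical. In the primary transplants of the paper, fewer mice of the knockout group developed leukemia in the observed time than there are knockout libraries. Some of the knockout libraries may therefore stem from the same primary leukemia.

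An integrin is a pair of an α and a β subunit, and the pair decides the ligand. β1 pairs with most α subunits and binds fibronectin, laminins, collagens and VCAM-1, β2 pairs with αL, αM, αX and αD on leukocytes, and β3 pairs with αIIb on platelets and with αv. In the marrow, α4β1 on progenitors and leukemia cells holds on to VCAM-1 and fibronectin, selectins capture rolling cells, CXCR4 answers to CXCL12 from stromal cells, and talin and kindlin-3 bind the β tails and switch integrins to the high-affinity state.

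Library totals ran from 62141558 to 72717681 counts, and a count of 12, taken as the limit of detection, was worth 0.163 to 0.198 CPM (a share of the TMM-scaled library total, times 1e+06). Ddit4 lay at 228, 161 and 342 CPM in wild-type libraries 1, 2 and 3 and at 84.9, 77.7 and 85.9 in knockout libraries, so that it fell by 1.56 on the log2 scale in the latter (SE 0.28, edgeR adjusted p = 0.00635). Which part of Ddit4 the allele lacks is not stated, so remaining counts in knockout libraries do not check it. By western blot, the paper reports no DDIT4 protein in knockout leukemia cells. The libraries also differed by the sex of the cells. Xist lay between 566 and 1032 CPM in wild-type and between 20.3 and 129 in knockout libraries, and the Y-linked Ddx3y was at most 0.0774 CPM in the former and at least 88.2 in the latter, so sex and genotype cannot be told apart in any difference given here. In knockout libraries 1, 2 and 3 Xist lay at 63.2, 20.3 and 129 CPM beside Ddx3y at 120, 125 and 88.2. The paper names female recipients in some of its transplants. Whether recipient cells were present in the knockout libraries, and their part in the values given here, was not tested. Mitochondrial transcripts took 5.03% to 7.90% of counts in wild-type and 11.3% to 16.4% in knockout libraries. Libraries correlated at 0.951 to 0.965 within and 0.791 to 0.846 between genotypes. The pan-leukocyte gene Ptprc was present throughout and higher in knockout, at 60.7 to 170.4 against 453 to 667 CPM (2.43 in log2, edgeR adjusted p = 0.00416). Kit, the receptor by which the donor cells had been selected, was also higher, at 14.6 to 31.6 against 304 to 509 CPM (4.06, edgeR adjusted p = 0.000550).

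The libraries differed widely in lineage markers. Of 12 erythroid markers 11 were lower in knockout and none was higher, with a summed level of 7682 to 14747 CPM in wild-type and 358 to 885 in knockout libraries. Of 11 tested megakaryocyte and platelet markers 8 were higher and none lower (47.7 to 80.0 against 503 to 843 CPM summed). Of 12 neutrophil markers 4 were lower and none higher (7669 to 12562 against 1949 to 5479 CPM). Markers higher in knockout were 4 of 8 for mast cells and basophils (258 to 291 against 1178 to 1848 CPM), 7 of 9 for B cells (7.91 to 139.8 against 404 to 960.3), 10 of 11 for T and NK cells (11.3 to 49.3 against 162 to 217), 5 of 12 for monocytes and macrophages (245 to 542 against 317 to 741) and 3 of 9 for dendritic cells (45.5 to 78.8 against 99.8 to 135), with none lower on these 5 lists. Among endothelial markers 7 of 9 were higher and 1 lower, and among stromal ones 4 of 9 were higher and none lower. Among all genes tested, 19.4% were higher and 10.7% lower. The marker counts are descriptions, since markers that passed the filter on low counts through the knockout libraries alone had to come out higher. That held for 4 of the 11 tested megakaryocyte, 6 of the 9 B cell, 8 of the 11 T and NK cell, 2 of the 12 monocyte, 2 of the 9 dendritic cell, 7 of the 9 endothelial and 4 of the 9 stromal markers, and for none of the erythroid, neutrophil and mast cell markers. The part of these lineages in the values of the homing genes was not tested, and in such bulk samples fewer cells of a type and less RNA per cell cannot be told apart.

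Of the 38 genes 36 could be tested, and 17 were higher and 2 lower in knockout cells at an adjusted p below 0.05 (edgeR quasi-likelihood test over all genes). Among all 18375 genes tested, 30.1% passed, 19.4% as higher and 10.7% as lower, against 47.2% and 5.56% of the 36 homing genes. The median log2 fold change was 0.77 over the 36 genes and 0.04 over all genes tested. Of the 36, 5 (Itga3, Itga7, Itgad, Itgb6 and Cxcl12) passed the filter on low counts through the knockout libraries alone, where they had to differ, so these shares and medians are descriptions. Among the 24 genes with a mean of at least 10 CPM in a genotype, 10 were higher and 2 lower, with a median of 0.46. This cut admits genes that are high in knockout only, and 1 of the 24 (Itgad) passed the filter through those libraries alone. Under the unlike cut of an average log2 CPM above 4, 1243 of 8218 genes were higher and 1400 lower, with a median of -0.17. The genotypes did not overlap in 21 of the 36 genes, and in 50.1% of all genes tested. Without wild-type library 3 the number of higher genes fell to 11, and without wild-type library 1 or 2 or knockout library 1 or 2 the number of lower genes was 1.

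**Figure D1:**
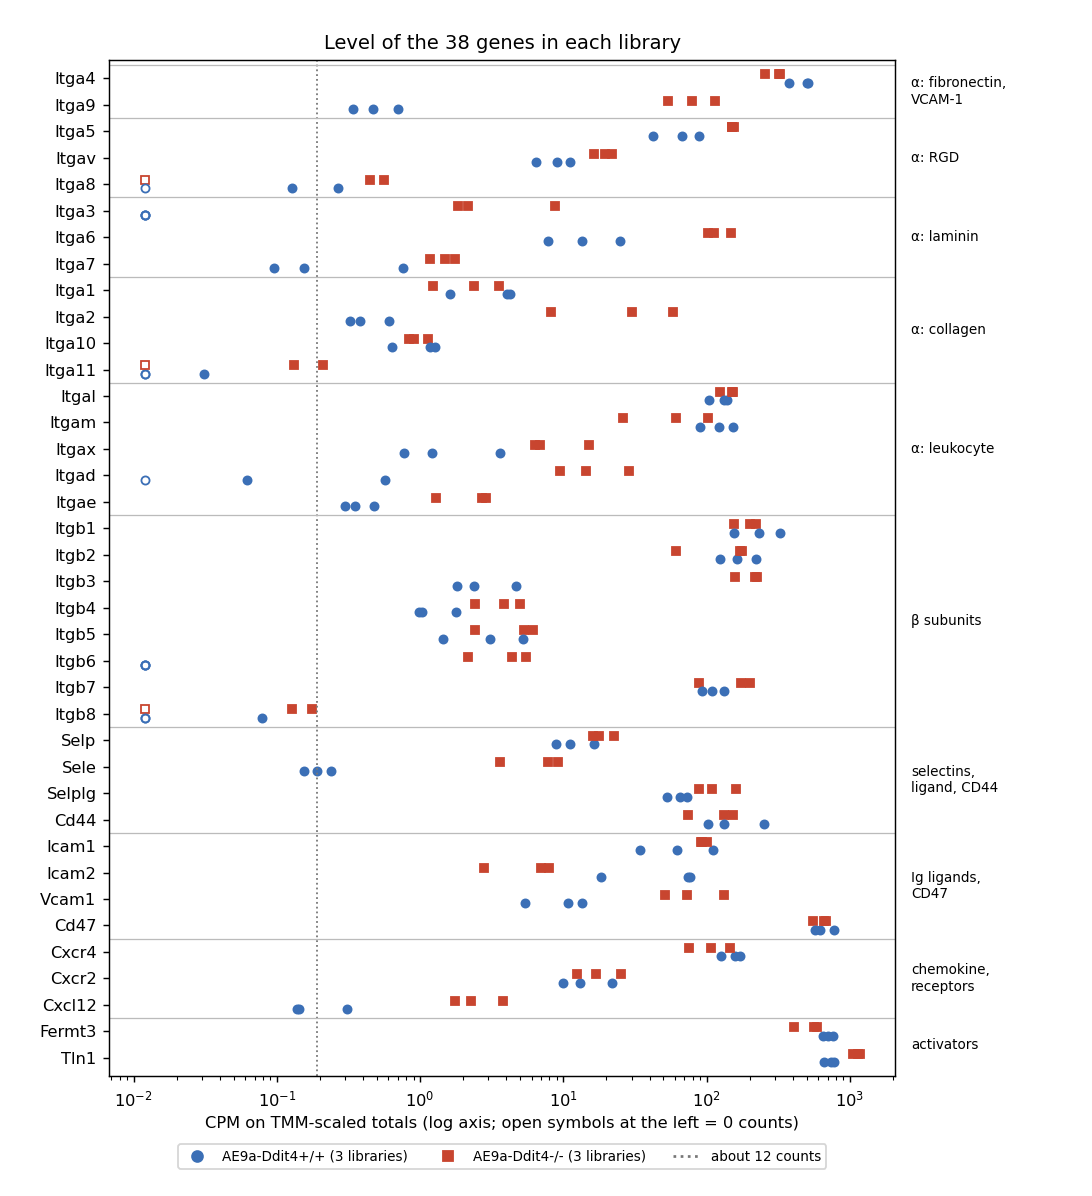
Level of each of the 38 genes in CPM (log axis) in the 3 wild-type libraries (AE9a-Ddit4+/+, circles) and the 3 knockout libraries (AE9a-Ddit4-/-, squares), grouped by role, with open symbols for 0 counts and a dotted line at about 12 counts. Itga9, Itga2, Itgad and Itgb3 went from a few CPM or less to between 8.21 and 227 CPM, while Itgb1, Itgb2, Cd44 and Cd47 overlapped between genotypes.

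The α subunits that receive VCAM-1 and fibronectin moved in opposite directions. Itga4 (α4, ENSMUSG00000027009, chr2:79255426-79333123 on GRCm38, plus strand), the α subunit of VLA-4, lay at 503, 509 and 378 CPM in wild-type libraries and at 324, 258 and 319 in knockout libraries. The lowest wild-type library was above the highest knockout library. That is 463 ± 74.2 against 300.3 ± 37.0 CPM (SD, n = 3 each), a difference of -0.62 in log2 (SE 0.20, edgeR adjusted p = 0.0471). This call was close to the threshold, and the adjusted p from edgeR was 0.126 without wild-type library 1, 0.0968 without library 2 of that genotype, and 0.0856, 0.104 and 0.0696 without knockout library 1, 2 or 3. Exons of the antisense gene Cerkl share 1124 bases with Itga4, but Cerkl held 75 to 173 counts per library, against 15651 to 34565 for Itga4.

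Itga9 (α9, ENSMUSG00000039115, chr9:118606690-118901003, plus strand) also pairs with β1 and binds VCAM-1 and tenascin-C. It lay at 0.696, 0.472 and 0.340 CPM in wild-type and at 114, 79.7 and 53.5 in knockout libraries. Every knockout library was far above every wild-type library, and the rise of 7.36 in log2 (SE 0.46, edgeR adjusted p = 0.000195) was the largest among the homing genes with counts in each library. Per kilobase of exon, Itga4 still had the higher level of the pair in knockout cells, at 21.5 against 10.7 CPM per kb, while in wild-type cells the levels were 33.1 and 0.0654.

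The promoters of these receptors are shown with those of Itgam and Fermt3, the highest β2 partner per kilobase in wild-type cells and the blood cell kindlin, because the AE9a fusion keeps the DNA-binding domain of AML1 (RUNX1), which reads RUNX motifs. Each is the RefSeq sequence (GRCm38.p6) of the 250 bases before the start, 5′ to 3′ on the gene's strand, with motif matches on either strand in capitals. The motif searched for RUNX factors was TGTGGT. For GATA factors the letters were AGATAA, and for the myeloid factor PU.1 they were GAGGAA.
Itga4 (chr2:79255176-79255425, plus): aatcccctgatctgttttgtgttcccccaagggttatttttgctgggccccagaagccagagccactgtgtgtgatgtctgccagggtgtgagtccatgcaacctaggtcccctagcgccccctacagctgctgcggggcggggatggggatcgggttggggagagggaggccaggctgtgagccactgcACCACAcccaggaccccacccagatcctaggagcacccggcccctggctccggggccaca
Itga9 (chr9:118711442-118711691, plus): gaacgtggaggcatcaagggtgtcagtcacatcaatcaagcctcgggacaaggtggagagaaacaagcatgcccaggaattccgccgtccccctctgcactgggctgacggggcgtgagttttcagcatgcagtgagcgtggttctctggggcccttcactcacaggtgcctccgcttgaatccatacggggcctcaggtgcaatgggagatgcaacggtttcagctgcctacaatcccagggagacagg
Itgam (chr7:128062390-128062639, plus): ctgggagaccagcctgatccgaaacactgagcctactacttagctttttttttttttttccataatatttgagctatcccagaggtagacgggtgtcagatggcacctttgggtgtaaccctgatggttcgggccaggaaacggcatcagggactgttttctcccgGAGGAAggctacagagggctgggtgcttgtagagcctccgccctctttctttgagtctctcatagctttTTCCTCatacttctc
Fermt3 (chr19:7019470-7019719, minus): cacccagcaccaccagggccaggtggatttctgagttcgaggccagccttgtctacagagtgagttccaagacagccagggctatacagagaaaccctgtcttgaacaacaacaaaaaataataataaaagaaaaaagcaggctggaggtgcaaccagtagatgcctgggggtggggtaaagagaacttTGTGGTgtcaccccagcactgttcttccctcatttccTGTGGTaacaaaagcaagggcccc
The capitals in Itga4 are a RUNX match on the opposite strand, those in Fermt3 are a pair of RUNX matches, and those in Itgam are a pair of PU.1 matches, while the Itga9 window held none of the 3 motifs. The RefSeq start of Itga9 lies inside the longer GENCODE gene, so its window is not that of the outermost start. Such windows were at hand for 27 of the 38 genes. RUNX matches stood in 3 of the 27 (Itga4, Itga3 and Fermt3) and in 14.0% of the 32851 promoters searched, GATA matches in 2 (Itgax and Cd44) and in 9.99%, and PU.1 matches in 11 and in 23.3%. The motifs were chosen with the values known, and a match is a description of the letters, not of binding.

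Both well-measured receptors of the RGD motif were higher in knockout cells. Itga5 (α5, chr15:103344286-103366763), the fibronectin receptor α subunit, lay at 89.0, 42.3 and 67.6 CPM in wild-type and at 150.4, 155 and 149.9 in knockout libraries, which did not overlap (1.19 in log2, SE 0.27, edgeR adjusted p = 0.0155, and 0.0526 without wild-type library 3). Itgav (αv), which pairs with β1, β3, β5, β6 and β8, lay at 8.98, 11.1 and 6.44 CPM against 16.4, 21.8 and 19.5, again without overlap (1.13, SE 0.30, edgeR adjusted p = 0.0259). Its call was lost without wild-type library 1 or 3 (edgeR adjusted p = 0.0693 and 0.0804) and without knockout library 2 or 3 (0.0897 and 0.0775). Itga8 stayed near the limit of detection in all libraries, at no more than 0.557 CPM. Itga5 and Itgb7 lie on chromosome 15, where the median log2 fold change of 344 well-expressed genes was 0.39, which is 0.56 above that of all well-expressed genes, and the part of this shift in their values was not tested. The same holds for chromosome 1 (0.40 above, with Sele, Selp, Cxcr4 and Cxcr2), chromosome 16 (0.42 above, with Cd47 and Itgb5) and chromosome 5 (-0.27 from it, with Selplg).

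Of the laminin receptor α subunits, Itga6 and Itga3 were higher. Itga6 (α6, ENSMUSG00000027111, chr2:71745616-71858416, plus strand), which pairs with β1 or β4 and marks many stem and progenitor cells, lay at 24.9, 13.6 and 7.85 CPM in wild-type and at 103, 149 and 113 in knockout libraries. The groups were well apart (2.98, SE 0.43, edgeR adjusted p = 0.00279). Itga3 had 0 counts in all wild-type libraries and 8.82, 2.16 and 1.84 CPM in knockout libraries, so that it was at least 23.2-fold higher when the wild-type side is set at 12 counts per library (edgeR adjusted p = 0.00449). Knockout library 1 held most of that signal, and the bound was 10.8-fold without it. Itga7 lay at 0.0950, 0.766 and 0.155 against 1.17, 1.76 and 1.496 CPM. Its groups did not overlap, but the change of 2.11 did not pass (SE 0.82, edgeR adjusted p = 0.0890), and it passed without wild-type library 2 (3.54, edgeR adjusted p = 0.00836). Itga7 had 6, 52 and 10 wild-type counts, so only library 2 of that genotype was above the limit of 12. It passed the filter on low counts through the knockout libraries alone, so the size of its change is uncertain.

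Among the collagen receptor α subunits, only Itga2 passed of the 3 tested. Itga2 (α2, chr13:114833081-114932100, minus strand), the platelet collagen receptor subunit, lay at 0.380, 0.604 and 0.325 CPM in wild-type and at 58.2, 8.21 and 30.0 in knockout libraries. The latter libraries spread widely, yet each was above all of the former (6.19, SE 0.80, edgeR adjusted p = 0.00182, and 5.45 without knockout library 1). Itga1 lay between 1.23 and 4.21 CPM and Itga10 between 0.634 and 1.27 CPM over the 6 libraries, with overlapping genotypes. Itga11 was at or under 13 counts in each library and was not tested.

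The leukocyte α subunits split by gene. Itgal (αL), which with β2 forms LFA-1, the receptor of ICAM-1 and ICAM-2, lay at 138, 104 and 132 CPM in wild-type and at 125, 151 and 154 in knockout libraries, which overlapped (0.20, SE 0.19, edgeR adjusted p = 0.459). Itgam (αM, CD11b, ENSMUSG00000030786, chr7:128062640-128118491, plus strand), the Mac-1 subunit of myeloid cells, lay at 154, 90.4 and 123 CPM against 61.1, 25.99 and 102. The third knockout library lay among the wild-type libraries, and the change of -0.95 did not pass (SE 0.46, edgeR adjusted p = 0.159, and -1.55 with an adjusted p of 0.0437 without that library). The gene Gm49368 shares 3450 exon bases with Itgam on the same strand and held 3399 counts in wild-type library 2 but at most 347 in any other library. With both genes summed, an alternative chosen after seeing the data, the level was 154, 140 and 123 CPM against 61.1, 28.0 and 107, which no longer overlapped, and the change was -1.09 (SE 0.43, edgeR adjusted p = 0.0971).

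Itgax and Itgad stand next to Itgam in the same stretch of chromosome 7 and were higher. Itgax (αX, CD11c), a dendritic cell and macrophage subunit, lay at 3.64, 1.21 and 0.774 CPM against 6.39, 6.88 and 15.1 (2.33, SE 0.68, edgeR adjusted p = 0.0368). Its adjusted p from edgeR was 0.0813 and 0.0926 without wild-type library 2 or 3, 0.0617, 0.0588 and 0.117 without knockout library 1, 2 or 3, and the change was 3.25 without wild-type library 1. Itgad (αD, chr7:128154376-128223816, plus strand), a VCAM-1 receptor subunit of macrophages, lay at 0.570, 0 and 0.0619 CPM against 14.5, 9.48 and 28.8, far apart (6.38, SE 1.29, edgeR adjusted p = 0.00956). With wild-type values this low its size was uncertain, at 9.09 without wild-type library 1, 5.79 without library 2 of that genotype and 5.79 without knockout library 3. Itgae (αE, CD103), the partner of β7 for E-cadherin, lay at 0.301, 0.354 and 0.480 CPM against 2.87, 1.30 and 2.69, without overlap (2.59, SE 0.52, edgeR adjusted p = 0.00923).

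The 3 β subunits with the highest levels per kilobase in wild-type cells, Itgb1, Itgb2 and Itgb7 (58.6, 55.7 and 40.3 CPM per kb), did not pass, while β3 rose steeply. Itgb1 (β1) lay at 327, 156 and 234 CPM in wild-type and at 156, 220.5 and 201 in knockout libraries (-0.31, SE 0.29, edgeR adjusted p = 0.449). Itgb2 (β2) lay at 163, 223 and 125 CPM against 177, 61.6 and 171 (-0.31, SE 0.41, edgeR adjusted p = 0.600). Itgb7 (β7), which pairs with α4 and αE, lay at 132, 110 and 92.9 CPM against 202, 88.5 and 173 (0.47, SE 0.32, edgeR adjusted p = 0.299). In all 3 genes the genotypes overlapped. Itgb3 (β3, ENSMUSG00000020689, chr11:104608000-104670476, plus strand), by contrast, lay at 1.80, 4.66 and 2.40 CPM in wild-type and at 217, 227 and 158 in knockout libraries. That was a mean of 2.95 ± 1.505 against 201 ± 37.3 CPM (SD, n = 3 each) and a rise of 6.08 in log2 (SE 0.44, edgeR adjusted p = 0.000289).

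The platelet partner of β3, Itga2b (αIIb), which is not among the 38 genes, lay at 114, 88.0 and 146 CPM against 1945, 2330 and 1788 (4.13, SE 0.26, edgeR adjusted p = 0.000195). Per kilobase of exon, Itga2b lay at 371 ± 51.2 and Itgb3 at 34.0 CPM per kb in knockout cells, so the transcript of the α partner was the more abundant. Both genes were higher in the libraries in which 8 of 11 megakaryocyte and platelet markers were higher. Of these 11 markers, 4 passed the filter on low counts through the knockout libraries alone. The part of megakaryocytes and platelets in the values of Itga2b and Itgb3 was not tested. Itgb6, an epithelial αv partner that activates latent TGF-β, had 0 counts in each wild-type library and 2.15, 5.48 and 4.41 CPM in knockout libraries, at least 21.8-fold higher against 12 counts per library (edgeR adjusted p = 0.00160). Itgb4, the α6 partner of hemidesmosomes, lay at 1.03, 1.77 and 0.990 against 3.85, 2.44 and 4.99 CPM, without overlap (1.57, SE 0.47, edgeR adjusted p = 0.0406). Its call was lost without wild-type library 1 or 3 (edgeR adjusted p = 0.114 and 0.122) and without knockout library 1 or 3 (0.101 and 0.134). Itgb5 lay between 1.45 and 6.10 CPM with overlapping genotypes, and Itgb8 was at or under 13 counts in each library and was not tested.

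**Figure D2:**
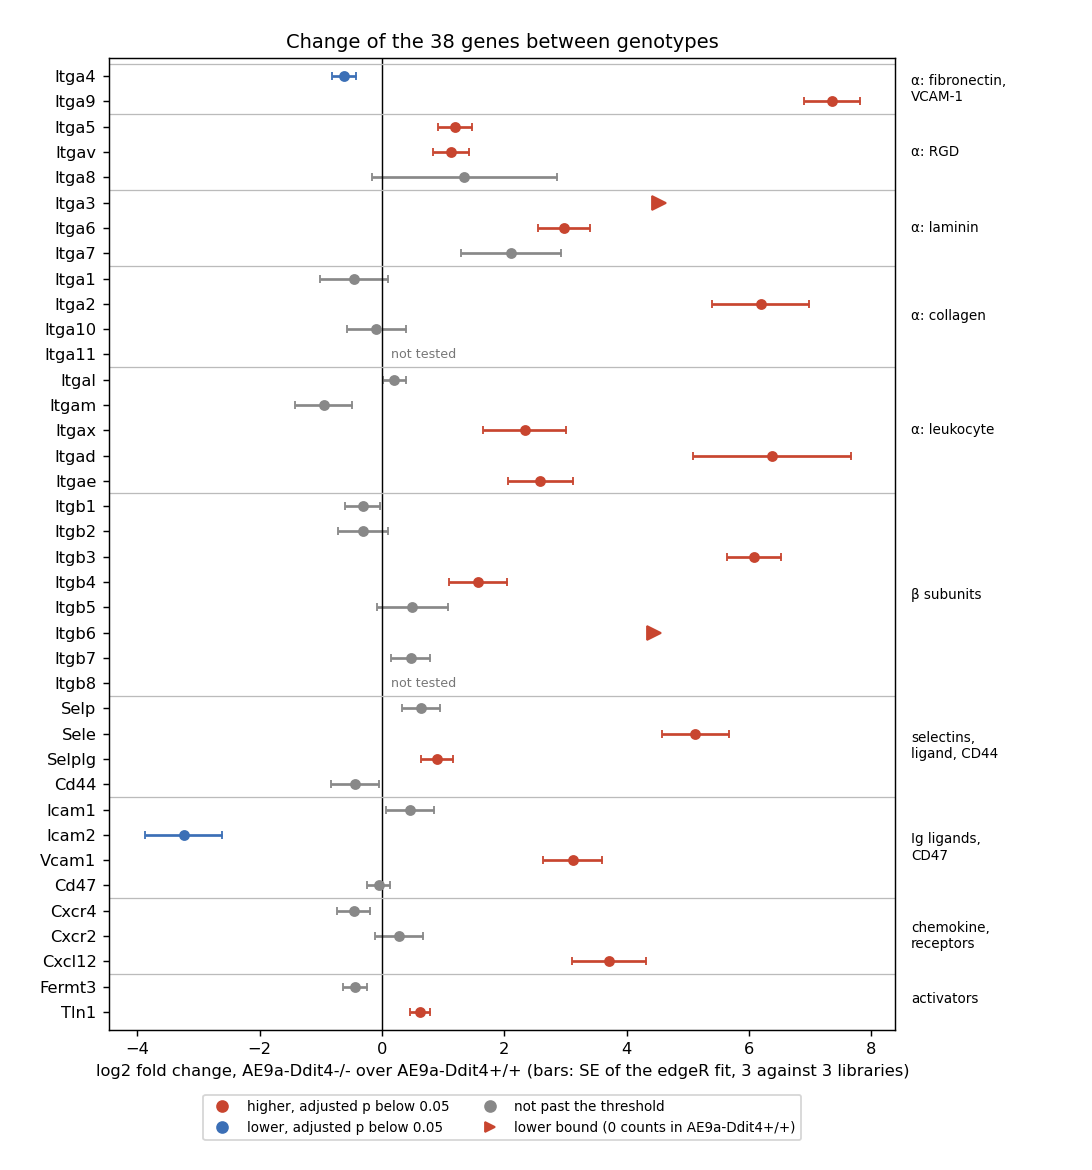
log2 fold change of knockout over wild-type for the 38 genes, grouped by role, with bars for the SE of the edgeR fit over 3 against 3 libraries and triangles for lower bounds of genes at 0 counts in wild-type. Itga9, Itgad, Itga2 and Itgb3 lie beyond 6 on the right, and only Itga4 and Icam2 passed on the left.

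The make-up of each integrin family was described by shares of summed CPM per kb of merged exons, a scale that depends on the exon lengths of all annotated isoforms. The shares of a family make up the whole in each library. A rise of other subunits therefore lowers a share even where the level of its own gene is unchanged. Among the α partners of β1, Itga4 took 61.7%, 75.6% and 63.4% in wild-type and 25.2%, 22.8% and 28.7% in knockout libraries, means of 66.9% ± 7.58 and 25.6% ± 2.94 (SD, n = 3 each). Itga5 took 27.0% ± 7.96 in wild-type and 36.8% ± 3.09 in knockout libraries, Itga6 3.30% ± 1.36 and 16.2% ± 3.998, Itga9 0.129% ± 0.0258 and 12.6% ± 3.75, and Itga2 0.125% ± 0.0449 and 5.20% ± 3.73. None of these 5 shares overlapped between genotypes (exact permutation test, two-sided, p = 0.1 each, the smallest that 3 against 3 libraries can give, adjusted p = 0.171 over 24 shares). The sum over the β1 partners was 49.7 ± 7.92 CPM per kb in wild-type and 84.1 ± 6.71 in knockout cells, also without overlap (exact permutation p = 0.1).

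Among the α partners of β2, Itgam took 55.2% ± 2.79 in wild-type and 29.5% ± 11.6 in knockout libraries, Itgax 0.848% ± 0.550 and 4.71% ± 1.09, and Itgad 0.0905% ± 0.131 and 9.19% ± 2.68, without overlap (exact permutation p = 0.1 and adjusted p = 0.171 each). In this family Itgam was taken without Gm49368, which held 3399 counts beside 6133 of Itgam in wild-type library 2. Itgal was at 43.8% ± 3.36 and 56.6% ± 14.6, with overlap (exact permutation p = 0.3, adjusted p = 0.379). The sum over the β2 partners was 43.7 ± 9.23 and 40.2 ± 11.5 CPM per kb (exact permutation p = 0.8). Among the β subunits, Itgb3 took 0.329% ± 0.174 and 19.1% ± 6.48, and Itgb2 35.9% ± 10.2 and 23.4% ± 8.29, again without overlap (exact permutation p = 0.1 and adjusted p = 0.171 each). Itgb1 lay at 37.4% ± 10.8 and 26.7% ± 9.43 (exact permutation p = 0.2) and Itgb7 at 25.7% ± 0.424 and 29.5% ± 6.84 (exact permutation p = 0.4). The share of Itgb2 did not overlap although its levels in CPM did. None of the 24 shares can pass a threshold of 0.05 in this design.

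**Figure D3:**
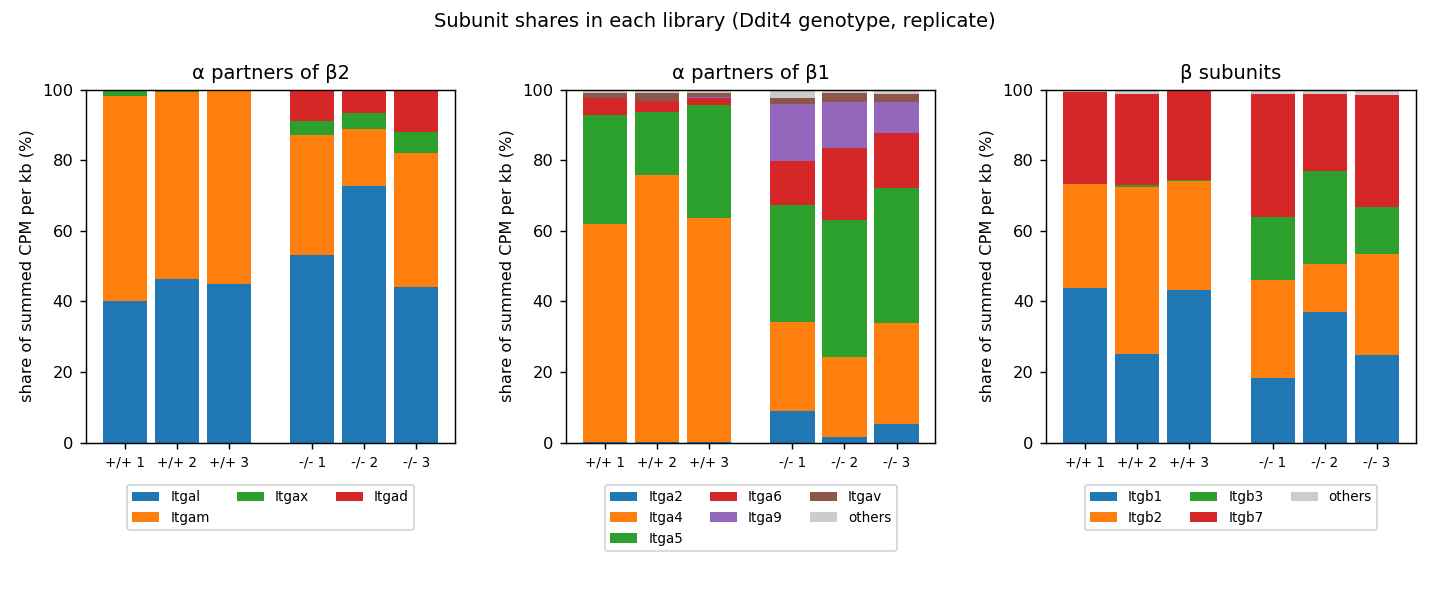
Share of each subunit, in percent of the summed CPM per kb of exon, among the α partners of β1, the α partners of β2 and the β subunits, drawn for each of the 6 libraries. Itga4 makes up at least 61.7% of the β1 partners in wild-type and at most 28.7% in knockout libraries, and Itgb3 at most 0.514% and at least 13.5% of the β subunits.

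Among the selectin genes, Sele and Selplg passed and Selp did not. Sele (E-selectin, chr1:164048234-164057677, plus strand), the adhesion receptor that activated endothelium displays to rolling cells, lay at 0.237, 0.192 and 0.155 CPM in wild-type (10 to 15 counts, about the limit of detection) and at 7.82, 9.17 and 3.59 in knockout libraries. The groups were far apart (5.13, SE 0.55, edgeR adjusted p = 0.000916). In the same libraries the endothelial markers summed to 10.1 to 31.2 CPM in wild-type and 216 to 278 in knockout, with 8 of the 12 markers at a mean above 1 CPM in knockout and 1 in wild-type. Most of the knockout sum was Tie1, at 159 to 213 CPM. Kdr, Tek, Cdh5, Stab2, Sox18 and Flt4 were also higher, with up to 31.5 CPM (Tek), Plvap was lower (-1.82, edgeR adjusted p = 0.0457, and 0.110 to 0.141 without wild-type library 1 or 3 or knockout library 1 or 2), and Emcn, Cldn5, Sox17 and Ptprb were at most 0.741 CPM in any library. The part of endothelial cells in the Sele value was not tested. Selp (P-selectin, of platelets and endothelium) lay at 16.4, 11.1 and 8.87 against 17.8, 22.5 and 16.2 CPM (0.64, SE 0.31, edgeR adjusted p = 0.162).

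Selplg, which encodes PSGL-1, the leukocyte ligand of P-selectin, lay at 72.8, 65.6 and 53.2 CPM in wild-type and at 109, 89.0 and 160.4 in knockout libraries, without overlap (0.90, SE 0.26, edgeR adjusted p = 0.0356). Without single libraries the edgeR adjusted p was 0.0639, 0.0623 and 0.122 (wild-type library 1, 2 or 3) and 0.0670 and 0.107 (knockout library 1 or 3). Cd44, the hyaluronan receptor that can also carry selectin ligands, lay at 253, 102 and 133 CPM against 74.5, 132 and 153, and its genotypes overlapped (-0.44, SE 0.40, edgeR adjusted p = 0.440).

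The surface ligands of the integrins went separate ways. Vcam1 (ENSMUSG00000027962, chr3:116109949-116129688, minus strand), the ligand of α4β1 and α9β1 on stroma, endothelium and macrophages, lay at 13.6, 10.7 and 5.40 CPM in wild-type and at 73.6, 50.9 and 134 in knockout libraries. All knockout libraries were higher (3.12, SE 0.48, edgeR adjusted p = 0.00341). Stromal markers summed to 6.85 to 14.8 against 164 to 185 CPM, with 7 of the 12 at a mean above 1 CPM in knockout and 4 in wild-type. Pdgfrb made 138 to 162 CPM of the knockout sums, Pdgfra, Ibsp and Sp7 were also higher at 2.02 CPM or less, Col1a1, Col1a2, Dcn and Cdh11 did not pass, at 0.598 to 7.97 CPM, and Lepr, Lum, Bglap and Adipoq were at most 0.461 CPM in any library. Monocyte and macrophage markers summed to 245 to 542 against 317 to 741 CPM, and the part of stromal cells and macrophages in the Vcam1 value was not tested. Icam2 (ENSMUSG00000001029, chr11:106377656-106388075, minus strand), an LFA-1 ligand of endothelium, platelets and leukocytes, lay at 77.0, 18.4 and 73.8 CPM against 2.79, 7.05 and 8.01. It was the gene with the largest fall among the 36 tested (-3.24, SE 0.63, edgeR adjusted p = 0.00847), although wild-type library 2 stood well below the other two. Icam1, the inducible LFA-1 and Mac-1 ligand, lay at 111, 34.3 and 62.003 against 91.7, 92.4 and 101 CPM, with overlap (0.46, SE 0.39, edgeR adjusted p = 0.408). Cd47, which binds SIRPα on macrophages and had 105 CPM per kb in wild-type and 101 in knockout cells, lay at 619.8, 775 and 574 against 557, 680.2 and 662 CPM (-0.05, SE 0.19, edgeR adjusted p = 0.857).

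The chemokine Cxcl12 passed and its receptor Cxcr4 did not. Cxcl12 (chr6:117168535-117181367, plus strand), the retention signal of marrow stroma, lay at 0.142, 0.309 and 0.139 CPM in wild-type and at 3.82, 1.76 and 2.27 in knockout libraries (3.72, SE 0.60, edgeR adjusted p = 0.00397). Its level stayed at a few CPM even where it was higher. With 9, 21 and 9 wild-type counts, Cxcl12 passed the filter on low counts through the knockout libraries alone and had to differ. Its call is therefore a description and no contrast with Cxcr4, and the size of its change is uncertain. Cxcr4 lay at 157, 127 and 170.2 CPM against 107, 75.2 and 147, which overlapped (-0.46, SE 0.27, edgeR adjusted p = 0.230), and Cxcr2, the neutrophil receptor, at 13.2, 21.8 and 10.0 against 12.5, 16.8 and 25.1 CPM (0.27, SE 0.39, edgeR adjusted p = 0.628).

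Of the cytoplasmic activators of integrins, Tln1 passed and Fermt3 did not. Tln1 (talin-1, chr4:43531519-43562691, minus strand) lay at 772, 662 and 745 CPM in wild-type and at 1058, 1174 and 1136 in knockout libraries. The groups did not overlap (0.63, SE 0.16, edgeR adjusted p = 0.0244). The edgeR adjusted p was 0.0504, 0.0560 and 0.0742 without wild-type library 1, 2 or 3 and 0.0903 and 0.0937 without knockout library 2 or 3. Fermt3 (kindlin-3) lay at 652, 710.1 and 761 against 567, 593 and 407 CPM. Its groups did not overlap either, with the knockout libraries lower, but the change of -0.44 did not pass (SE 0.20, edgeR adjusted p = 0.136). Per kilobase of exon, Fermt3 was the higher of the pair in wild-type cells (122 against 74.1 CPM per kb) and Tln1 in knockout cells (115 against 90.3).

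Neighbouring genes of the pathway were read from 5 further lists. On these too, some genes passed the filter on low counts through the knockout libraries alone and had to differ, namely 5 of the 37 tested adaptors, 1 of the 20 selectin carrier genes, 5 of the 27 ligand and matrix genes and 5 of the 36 retention genes, so the counts and medians are descriptions. Bcar1, Src, Ltbp1, Esam and Robo4, named below, are among these genes. Their wild-type counts were at most 26 per library, so their calls are descriptions too and the sizes of their changes are uncertain. Of 3 integrins outside the 38, Itga2b rose, Itgb2l, at 42.3, 74.6 and 51.2 against 23.8, 7.26 and 41.3 CPM, did not pass (-1.22, edgeR adjusted p = 0.144, and -1.91 with an adjusted p of 0.0491 without knockout library 3) and Itgbl1 was not tested. Of 37 tested integrin adaptors 9 were higher (24.3%) and 5 lower (13.5%), near the 19.4% and 10.7% of all genes tested. Their median log2 fold change was 0.30. The docking protein Bcar1 had 0 counts in all wild-type libraries and 17.8, 29.5 and 2.39 CPM in knockout libraries, at least 90.0-fold higher (edgeR adjusted p = 0.00490, and 54.8-fold without knockout library 2). The kinase Src lay at 0.127, 0.383 and 0 against 10.6, 17.2 and 9.04 CPM (6.15, edgeR adjusted p = 0.00590, and 7.57 without wild-type library 2). Rasgrp2, the exchange factor that activates Rap1 in platelets, lay at 21.7, 29.2 and 12.8 against 161, 122 and 113 CPM (2.64, edgeR adjusted p = 0.00170).

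Lower adaptors included Parvb, Flna and Dok1. Parvb (β-parvin) lay at 104, 56.6 and 115 against 40.8, 34.1 and 40.7 CPM (-1.26, edgeR adjusted p = 0.0151, and 0.0536 and 0.0503 without wild-type library 3 or knockout library 2). Flna (filamin A), which competes with talin for β tails, lay at 769, 811 and 599.7 against 290.5, 219 and 428 CPM (-1.22, edgeR adjusted p = 0.0148, and 0.0573 without knockout library 1). Dok1, another β tail binder, went from 63.6 ± 6.61 to 36.6 ± 6.41 CPM (SD, n = 3 each) (-0.80, edgeR adjusted p = 0.0254), and its call was lost without wild-type library 1 or 3 (0.0772 and 0.0755) and without knockout library 1 or 3 (0.0537 and 0.0711). For Itga2b, Rasgrp2, Parvb, Flna and Dok1 the genotypes did not overlap.

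On the list of selectin ligand carriers and the enzymes that glycosylate or sulfate them, 1 of 20 tested genes was higher (5%) and 5 were lower (25%). Among all genes tested these shares were 19.4% and 10.7%. The median of the list was -0.32. The mucin-like carrier Cd24a fell from 862 ± 25.5 to 58.8 ± 30.8 CPM (SD, n = 3 each, -3.87, edgeR adjusted p = 0.00137). The sialomucin Podxl lay at 187, 56.3 and 239 against 16.2, 27.9 and 21.9 CPM (-2.87, edgeR adjusted p = 0.00647), and the tyrosine sulfotransferase Tpst1 at 21.1, 15.8 and 17.4 against 2.55, 1.25 and 4.42 (-2.72, edgeR adjusted p = 0.00610). The sialyltransferases St3gal3 (-1.58, edgeR adjusted p = 0.00361) and St3gal6 (-2.28, edgeR adjusted p = 0.0165) were also lower, the latter with an adjusted p of 0.0525 to 0.0584 without wild-type library 1 or 3 or knockout library 1 or 3. The gene that rose was the fucosyltransferase Fut7, which completes selectin ligands and is named after its values were seen, at 0.696, 1.64 and 0.805 against 6.23, 2.06 and 6.46 CPM (2.23, edgeR adjusted p = 0.0286). Its adjusted p was between 0.0871 and 0.0931 in edgeR fits without wild-type library 1 or 3 or knockout library 1 or 3.

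Of 27 tested integrin ligands and matrix genes 9 were higher (33.3%) and 2 (Vwf and Icam4) lower (7.41%), against 19.4% and 10.7% of all genes tested. Their median was 1.22. Vwf lay at 5.37, 5.91 and 10.2 against 0.626, 2.19 and 2.32 CPM (-2.06, edgeR adjusted p = 0.0327), and its adjusted p was 0.0532 to 0.104 without wild-type library 1 or 3 or any knockout library. Ltbp1, which holds latent TGF-β in the matrix, lay at 0.253, 0.177 and 0.124 against 11.02, 54.6 and 19.3 CPM (7.25, edgeR adjusted p = 0.000956, and 6.31 without knockout library 2). The basement membrane collagen Col4a2 lay at 0.380, 0.589 and 0.371 against 11.8, 31.2 and 10.1 CPM (5.30, edgeR adjusted p = 0.00114, and 4.56 without knockout library 2). Pecam1, of platelets, endothelium and leukocytes, went from 3.64 ± 1.53 to 137 ± 11.8 CPM (SD, n = 3 each, 5.23, edgeR adjusted p = 0.000293). Icam4, an erythroid ligand of integrins, went from 19.0 ± 4.63 to 2.41 ± 0.215 CPM (SD, n = 3 each, -2.98, edgeR adjusted p = 0.000928), in libraries in which 11 of 12 erythroid markers were lower. The part of erythroid cells in the Icam4 value was not tested.

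On the list of marrow retention, egress and shedding, 14 of 36 genes were higher (38.9%) and 5 lower (13.9%). Among all genes tested these shares were 19.4% and 10.7%. The median of the list was 0.34. Esam, an adhesion molecule of stem cells, platelets and endothelium, lay at 0.0475, 0.192 and 0 against 19.4, 27.1 and 19.4 CPM (8.05, edgeR adjusted p = 0.00127, and 9.75 without wild-type library 2). Robo4, a receptor for stem cell retention in the marrow, lay at 0.0791, 0.221 and 0 against 14.8, 10.0 and 10.8 CPM (6.86, edgeR adjusted p = 0.00277, and 8.17 without wild-type library 2). The chemokine receptor Ccr7 went from 0.447 ± 0.140 to 11.5 ± 3.77 CPM (SD, n = 3 each, 4.68, edgeR adjusted p = 0.000750). Sphk1, which makes the egress signal sphingosine-1-phosphate, fell from 42.7 ± 17.0 to 2.85 ± 1.011 CPM (SD, n = 3 each, -3.91, edgeR adjusted p = 0.000899). The protease Mmp14 went from 89.4 ± 20.4 to 34.0 ± 11.7 CPM (SD, n = 3 each, -1.39, edgeR adjusted p = 0.0119) and the receptor S1pr4 from 77.5 ± 12.3 to 30.7 ± 10.8 CPM (SD, n = 3 each, -1.34, edgeR adjusted p = 0.0133). All these counts are to be read against the 30.1% of all genes tested that passed.

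**Figure D4:**
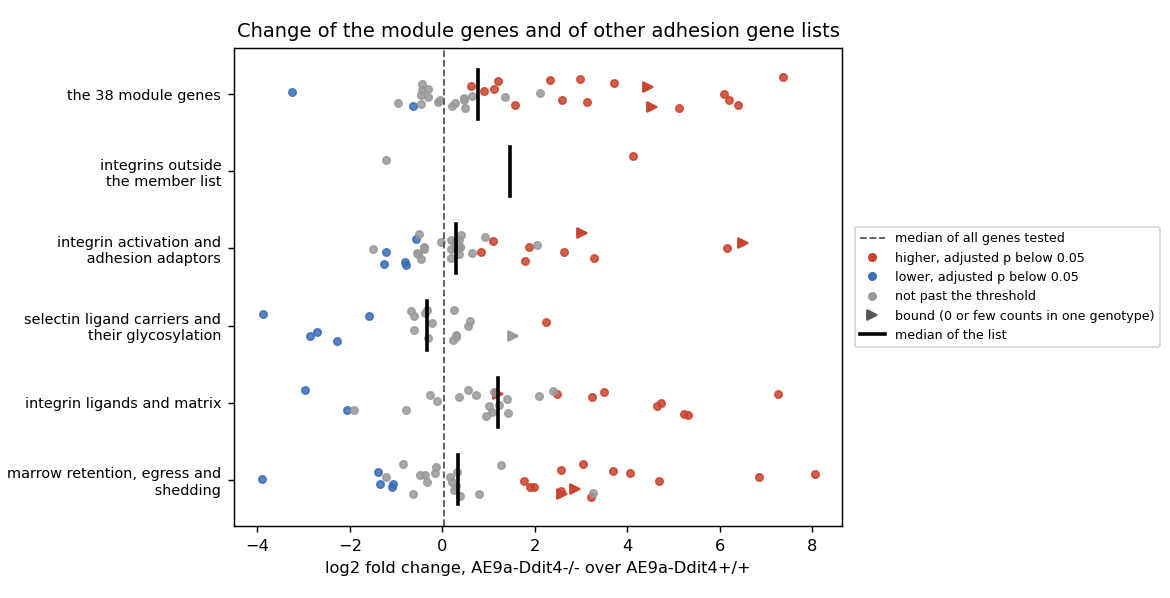
log2 fold change of knockout over wild-type for each tested gene of the 38 and of the 5 pathway lists (points, red higher and blue lower at an adjusted p below 0.05, triangles for bounds), with the median of each list as a black bar and that of all genes tested as a dashed line. The medians of the homing genes (0.77) and of the integrin ligands and matrix (1.22, or 1.21 with genes at 0 in a genotype set at their bound) lie right of that of all genes (0.04), with the genes that passed the filter through the knockout libraries alone included, and that of the selectin carrier list (-0.32) lies left of it.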

How the data were processed

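The authors sequenced 6 libraries on a NovaSeq instrument (paired reads of 150 bp) and deposited 1 table of estimated counts per gene, which were whole numbers. The labels name an mRNA kit and the methods a directional kit for rRNA-depleted RNA. GRCm38 and mm10 stand in the submitters' processing notes, while the aligner, counting tool, annotation and use of strand are not given in the sources used here, so reads of overlapping and antisense genes could not be told apart. Low values were piled at multiples of 4 (frequency ratio of 4, 8 and 12 to 2, 6 and 10: 1.40 to 1.62), so a limit of 12 counts per library was used, which covers counting error only.

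Groups and replicate numbers came from the sample titles. Genotypes were compared in R 4.3.3 with the quasi-likelihood test of edgeR 4.0.16 (filterByExpr, TMM factors of 0.921 to 1.05, robust fit, genotype as the only term) on 18375 genes, with Benjamini-Hochberg adjustment over all of them and a threshold of 0.05. Log2 fold changes are knockout over wild-type, and their SE was derived from the F statistic of each gene. The test was also run on simulated counts with the same dispersion for all genes and far fewer changed genes than here. That run does not check its error rate in these data. Genes at 0 in a genotype got a lower bound against 12 counts per library. CPM per kb used merged exons of GENCODE M21 (GRCm38), which also gave the positions and held 99.7% of the identifiers. Subunit shares were compared by exact two-sided permutation. Well-expressed genes are those with an average log2 CPM above 4. Promoters came from the RefSeq table.

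Homing genes that passed or had a mean of at least 10 CPM in a genotype are given in every library, the others by range. The pathway lists contribute all outside integrins and, per direction, the 3 most changed genes that passed and reached 10 CPM in a genotype. Members and lists were chosen with earlier results of these data known. Alternatives used DESeq2 1.42.0, limma 3.58.1 (voom), other scalings and filters, counts divided by 4, a replicate block and fits without 1 library.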

Additional observations from a re-analysis of the deposited data

How the results depend on the processing

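Of the 19 homing genes past the threshold, 12 stayed past it under every alternative in which they were tested and in all 6 fits without 1 library, and none of the 19 changed sign. The 12 include Itga3, Itgad, Itgb6 and Cxcl12. These passed the filter on low counts through the knockout libraries alone and had to differ, so their stability is no support. Over 534 alternative values of single homing genes, 483 kept direction and side of the threshold, 39 lost and 5 gained the call, and 7 changed sign, all of genes not past the threshold. Without single libraries, Itga10 ran from -0.34 to 0.088, Cd44 from -0.69 to 0.027, Cd47 from -0.15 to 0.084 and Cxcr2 from -0.066 to 0.65 (log2 fold change), and Cd47 was at 0.011 under a filter of 10 counts per library. The cause was not tested. Itga7 passed in DESeq2 (adjusted p = 0.0347), in limma voom (0.0270) and with counts divided by 4 (edgeR, 0.0476). Of 459 alternative values of 31 other genes (Ddit4, Ptprc, Kit, Tie1, Plvap, Pdgfrb and 25 of the pathway lists), 426 kept direction and side, 32 lost and 1 gained the call. For Bcar1, Src, Ltbp1, Esam and Robo4, which passed the filter through the knockout libraries alone, this stability is no support either.

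Fits without 1 library called 3840 to 6021 genes, 1089 to 2078 of them lower, and 13 to 16 homing genes, 11 to 15 of them higher and 1 to 2 lower. An adjusted p below 0.01 left 2676 genes (1964 higher, 712 lower) and 12 homing genes (11 higher, 1 lower). The filter of 10 counts per library, which tests fewer genes, left 2341 genes higher and 1 homing gene lower. Without division by length, the gain of Itgad among β2 partners was 7.09 percentage points (9.10 with it) and that of Itgb3 among β subunits 28.6 (18.8 with it). Without the low-count filter, the median of the ligand and matrix list was 1.56. Scaling by library totals alone moved the median log2 fold change of all genes by -0.0635, and the other scalings moved it less.

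Same-numbered libraries of the genotypes did not deviate together from the means of their genotypes (correlations of -0.306, -0.347 and -0.0081 over 10562 genes). With means over only 3 libraries, such correlations are tied to each other and cannot exclude a pairing or a shared batch. With a replicate block, 2964 genes passed (2177 higher, 787 lower), and 13 of the 19 homing genes kept the call, 1 of them lower. Depth limits Itga8, Itga11 and Itgb8 (at most 41 counts in any library) and the wild-type values of Itga3, Itgb6, Sele, Cxcl12 and Itgad (0 to 36 counts). The same holds for the wild-type values of Itga7 (6 to 52 counts).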

Other observations

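Itgam, Itgax and Itgad are neighbours on chromosome 7 (GRCm38), where the Itgam gene ends at 128118491 and Itgad spans 128154376 to 128223816. Their log2 fold changes nevertheless ran from -0.95 for Itgam to 6.38 for Itgad, and the same-strand gene Gm49368, whose exons overlap those of Itgam, held 3399 of its counts in wild-type library 2 and at most 1 in the other libraries of that genotype. Whether reads of Itgam were assigned to Gm49368 in that library was not tested.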
